A study of Mus musculus with 11 samples.

Results

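The ureter wall at E15.5 was studied as the difference between its inner epithelium, the urothelium, and the ureteral smooth muscle around it. The 6 arrays carrying these labels, 3 of each layer, were taken from a series of 11, which also holds 2 arrays of cortical collecting duct and 3 of early proximal tubule. No measured value chose the arrays. Of the 18193 gene symbols on the array, 13614 passed a filter on low values and were compared, each through 1 probe set. All material was wild-type CD-1, an outbred mouse stock, at Theiler stage 23, and no group carried a transgene or treatment. Each layer was cut from frozen, stained sections of fetal kidney blocks by laser capture microdissection. An array holds 1 pool of about 50 sections made from 5 kidneys, so a value is an average over animals and over whatever cells lay under the laser. Nothing states whether pools shared fetuses or litters, so a p-value reflects only how far these pools differ, part of which may be technical. The stated purpose was to profile the separate elements of the developing kidney, and the question here is which genes divide the 2 layers of the tube that drains it.

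The ureter carries urine by peristalsis. Its urothelium is a layered epithelium whose surface cells make plaques of uroplakin proteins and seal the wall with tight junctions, while its basal cells depend on the transcription factor p63. The mesenchyme around it, marked by the T-box factor Tbx18, forms smooth muscle under signals from the epithelium. Sonic hedgehog and WNT ligands come from the epithelium, and BMP4 and the myocardin and SRF transcription complex act in the mesenchyme. Smooth muscle then fills with actin, myosin and their regulators and is wrapped in collagen-rich matrix.

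Levels below are log2(signal + 55), where signal is the scaled intensity of a probe set, and a difference is urothelium minus muscle on that scale, so 1 unit is a 2-fold change. The offset shrinks the differences of weakly expressed genes. Levels of different genes come from different probe sets and are not set against each other. A gene was called when limma's adjusted p (Benjamini-Hochberg over the 13614 genes) was under 0.05 and the difference was at least 1 in size. Errors are standard errors of that fit with 3 arrays in each layer.

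The labels were checked against markers of each layer. The summed signal of 11 measured urothelial markers was 334000, 442000 and 201000 in urothelium replicates 1, 2 and 3 and 26500, 13200 and 14700 in the muscle replicates. Each urothelium array stood far above each muscle array. The same sum was 162000 to 238000 in collecting duct, overlapping urothelium, and 42700 to 63100 in proximal tubule. It thus sets urothelium apart from muscle but not from collecting duct. The summed signal of 10 smooth muscle markers was 484000, 368000 and 326000 in the muscle replicates and 115000, 48800 and 26800 in urothelium replicates 1, 2 and 3. The muscle sums in urothelium were thus lower than in muscle but above the 8340 to 21000 of collecting duct and the 8000 to 15500 of proximal tubule, and highest in replicate 1. What these muscle transcripts in the urothelium arrays add to any difference was not tested. In bulk samples such as these, fewer cells of a type and less RNA per cell cannot be told apart.

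Median signals were 250 to 302 in urothelium and 257 to 309 in muscle at a common trimmed mean of 1500. Across genes (not independent replicates), Pearson correlations were 0.884 to 0.916 among the urothelium arrays, 0.906 to 0.924 among the muscle arrays and 0.795 to 0.855 between the layers. The 3' to 5' ratio of the Gapdh control, a measure of RNA quality, was 16.7, 55.3 and 29.7 in urothelium and 6.79, 13.5 and 13.7 in muscle, without overlap, while the actin ratios overlapped (5.15 to 6.66 and 5.07 to 8.16). Its part in the differences was not tested. A date-like part of the sample names, whose meaning is not stated, groups urothelium replicates 2 and 3 with muscle replicate 3, and urothelium replicate 1 with muscle replicate 1. These groups are called label batches 1 and 2. Muscle replicate 2 shares its date-like part only with kidney arrays, so it enters no difference within a label batch.

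The 2 layers differed at 1084 genes, 7.96% of those tested. Urothelium was higher at 685 (5.03%) and muscle at 399 (2.93%). The median difference was 2.58 among genes higher in urothelium and -2.25 among genes higher in muscle, and 101 against 12 genes differed by at least 4. All 1084 kept their sign within each label batch, where the medians were 2.6 and 2.69 for urothelial genes and -2.42 and -2.03 for muscle genes. These are the arrays that made the calls, so the shared sign adds no support. Where the layers do not overlap, that sign is fixed in advance. Label batch 2 holds a single ureter array of each layer. The 3 arrays of 1 layer lay wholly above those of the other for 1836 genes in urothelium (13.5%) and 1414 in muscle (10.4%), which included 1077 of the called genes. With label batch as a fixed block limma called 719 genes, 512 higher in urothelium and 207 in muscle. The 6 ureter arrays alone with that block, a fit chosen after seeing the data, gave 217, 176 and 41. In that fit muscle replicate 2 is alone in its block and adds nothing to the difference between layers. The muscle count of 399 was sensitive to single arrays: it was 230 without urothelium replicate 2 and 264, 219 and 245 without muscle replicates 1, 2 and 3.

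**Figure D1:**
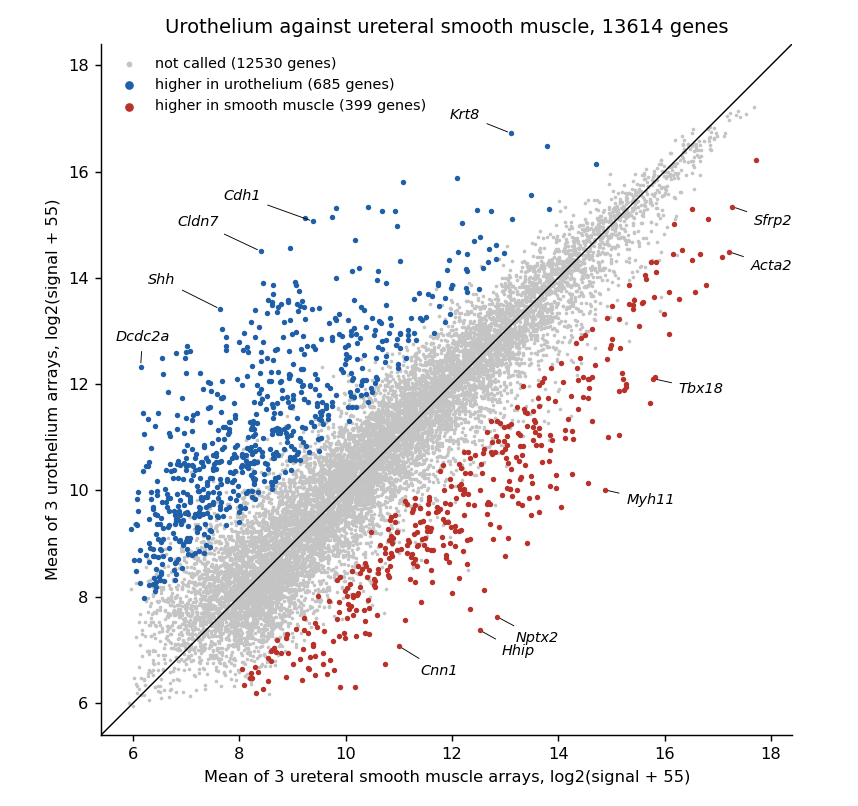
Mean level of each of 13614 genes in the 3 ureteral smooth muscle arrays (x axis) and the 3 urothelium arrays (y axis), both in log2(signal + 55); each point is a gene and the line marks equal levels. The 685 genes called higher in urothelium are blue, the 399 called higher in muscle red, and labelled genes are described in the text.

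Among the 15 genes that stood highest in urothelium were Cldn7 and Cdh1, which encode junction proteins. Cldn7, a claudin of tight junctions, was at 15.30, 13.91 and 14.30 in the urothelium arrays and at 7.80, 8.89 and 8.50 in muscle, a difference of 6.11 ± 0.51 or 68.9-fold (limma adjusted p = 2.93e-05). Cdh1, which encodes E-cadherin of the adherens junction, was at 15.03, 15.77 and 14.38 against 9.58, 9.22 and 9.37 (5.67 ± 0.45, 50.8-fold). No muscle array came within 4 units of the lowest urothelium array for either gene. Dcdc2a, a doublecortin-domain protein of microtubules, had the largest difference of all, 6.18 ± 0.76, but its urothelium levels spread from 10.58 to 14.58, and a dimmer probe set of the same gene differed by only -0.18. The other genes of the leading 15 were the drug and cation exporter Slc47a1 (5.94), the tetraspanin Tspan8 (5.90), the sodium channel subunit Scnn1g (5.78), the ligand Shh (5.78), the surface protein Plet1 (5.70), the apical sorting proteins Mal2 (5.63) and Mal (5.50), the membrane protease Tmprss2 (5.62), the desmosomal cadherin Dsc2 (5.60), the claudin Cldn23 (5.56), the flippase subunit Tmem30b (5.52) and the clathrin adaptor Ap1s3 (5.46). Adjusted p ran from 2.36e-05 to 0.000826 over these 15. Plet1 was read from a probe set marked a in its name. It lost its call when probe sets marked x, s or a were left out (limma adjusted p = 0.782).

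At the head of the muscle genes stood a secreted pentraxin, a hedgehog inhibitor and the smooth muscle myosin. Nptx2, neuronal pentraxin 2, was at 13.09, 12.78 and 12.69 in muscle and at 8.31, 6.55 and 8.01 in urothelium, a difference of -5.23 ± 0.63 (37.5-fold, limma adjusted p = 0.000245). Hhip, a membrane protein that binds hedgehog ligands, was at 11.40, 13.34 and 12.82 against 8.92, 6.58 and 6.59 (-5.16 ± 0.69). Myh11, the smooth muscle myosin heavy chain, was at 14.55, 15.30 and 14.74 against 12.01, 10.58 and 7.44 (-4.85 ± 0.94). Muscle arrays lay within 1 unit of each other for Nptx2 and Myh11 but not for Hhip, and urothelium replicate 1 was the highest urothelium array each time. The remaining 12 were the ferritin receptor Scara5 (-4.57), the ectonucleotidase Entpd1 (-4.48), the neurturin receptor Gfra2 (-4.43), the enteric actin Actg2 (-4.41), the collagens Col9a1 (-4.36) and Col8a2 (-3.94), the carboxypeptidase-like Cpxm2 (-4.22), the caveolar coat protein Cavin2 (-4.10), the cardiac actin Actc1 (-4.09), the muscle splicing factor Rbm24 (-4.05), the microfibril protein Mfap4 (-3.96) and the troponin Tnnt2 (-3.94). Adjusted p ran from 0.000102 to 0.0414. Without urothelium replicate 2 the difference of Mfap4 was -2.36 and not called (adjusted p = 0.104). Myh11 missed the threshold with label batch as a block (adjusted p = 0.0505) and Gfra2 without cross-matching probe sets (0.637), and another probe set of Scara5 differed by 0.24. Of these 30 leading genes, 17 had other probe sets above the filter, and for 15 all of them had the same sign.

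Uroplakins and the genes of plaque transport were higher in urothelium. Of 9 measured members, 7 were higher in urothelium, 0 in muscle and 2 were not called, with a median difference of 4.26 against 0.06 over all genes. Upk3a, which pairs with Upk1b in the plaque, was at 13.92, 13.24 and 12.36 in urothelium and 7.27, 8.6 and 8.75 in muscle (4.96 ± 0.54, 31.2-fold, limma adjusted p = 0.000114). Upk1b was at 14.26, 13.81 and 11.54 against 9.33, 8.91 and 8.59 (4.26 ± 0.71). Rab27b, a small GTPase that brings plaque vesicles to the apical surface, was at 13.67, 14.11 and 12.92 against 10.17, 10.04 and 7.33 (4.39 ± 0.72). In all 3 genes replicate 3 was the lowest urothelium array, still above every muscle array. Mal, given above, and Upk3b (4.34), its paralogue Upk3bl (2.61) and the uroplakin-sorting nexin Snx31 (2.07) were also called. Upk2, the partner of Upk1a, was not: it was at 9.75, 9.72 and 9.42 in urothelium and at 9.53, 7.16 and 9.28 in muscle (0.97 ± 0.65, adjusted p = 0.484), and Upk1a did not pass the filter. Upk3bl and Snx31 missed the threshold with label batch as a block and without some single arrays (highest adjusted p 0.0649 and 0.098).

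Keratins of simple and transitional epithelium were called, and those of stratified epithelium mostly fell below the filter. Of 9 measured keratins, 6 were higher in urothelium and 0 in muscle, with a median of 2.78, while Krt4, Krt13, Krt14, Krt15, Krt16 and Krt17 did not pass the filter. Krt19 was at 14.07, 14.22 and 12.77 against 9.18, 8.67 and 8.03 (5.06 ± 0.47, 33.4-fold, limma adjusted p = 5.45e-05). Krt18 (4.57), Krt7 (4.04), Krt8 (3.61) and Krt23 (2.70) followed. Krt20, known from the surface umbrella cells, was at 10.92, 10.18 and 8.09 against 6.12, 8.09 and 6.64, and its layers met at 8.09 although it was called (2.78 ± 0.69). Krt20 and Krt23 each lost the call under some alternatives (highest adjusted p 0.0972 and 0.0756). Krt5, the keratin of mature basal cells, was at 8.95 to 9.80 in urothelium and 8.21 to 9.23 in muscle and was not called.

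Transcription factors known from urothelium and other epithelia were mostly higher in urothelium. Of 24 measured members of that list, 17 were higher in urothelium, 1 was higher in muscle and 6 were not called (median 2.90). Trp63, which encodes p63 of basal cells, was at 14.54, 13.54 and 12.44 against 11.24, 8.44 and 7.60 (4.42 ± 1.01, limma adjusted p = 0.0156). Foxa1, a forkhead factor of endodermal and urothelial epithelium, was at 15.31, 16.01 and 14.42 against 11.74, 10.64 and 10.39 (4.32 ± 0.47). Pparg, a nuclear receptor of urothelial differentiation, was at 11.87, 12.87 and 10.48 against 6.26, 8.02 and 8.76 (4.07 ± 0.75). None of the 3 overlapped between layers, and the muscle levels of Trp63 were the most uneven. The ETS factors Ehf (4.72) and Elf5 (3.79), the zinc finger factor Gata3 (4.66), the AP-2 factor Tfap2c (3.76), the homeobox factor Emx2 (3.46), Tfcp2l1 (3.36), Klf5 (2.94) and all 3 grainyhead-like factors, Grhl1 (3.15), Grhl2 (3.14) and Grhl3 (2.48), were higher in urothelium. A less bright probe set of Grhl2 differed by -0.18 and another by 2.78. The list's exception was the Krüppel-like factor Klf4, at 12.27, 12.42 and 12.98 in muscle and 11.13, 11.02 and 9.34 in urothelium (-2.06 ± 0.54). Trp63, Klf4, Klf5 and Tfap2c lost the call under some alternatives (highest adjusted p 0.0705, 0.123, 0.124 and 0.438).

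Genes of adherens and tight junctions and of desmosomes were called in urothelium and none in muscle. Of 26 measured genes of adherens and tight junctions 17 were higher in urothelium, 0 in muscle and 9 were not called (median 3.24). Epcam, an epithelial surface glycoprotein, was at 15.95, 14.97 and 15.08 against 11.88, 9.52 and 9.86 (4.92 ± 0.55), and the junction proteins Cldn8 and Ocln differed by 4.65 ± 0.64 and 4.32 ± 0.80. Of 15 desmosome and hemidesmosome genes 11 were higher in urothelium and 0 in muscle (median 2.44). Dsp, desmoplakin, which ties desmosomes to keratin, was at 14.21, 14.53 and 13.01 against 8.74, 9.97 and 8.41 (4.88 ± 0.51). The desmosome genes Pkp2 (5.09), Dsg2 (4.62) and Perp (4.54) were also higher, and Lamb3 (3.38) and Lama3 (2.26), chains of the laminin under basal cells, followed, though Pkp1, Col17a1 and Itgb4 did not pass the filter. Of 15 measured genes of epithelial splicing, surface proteolysis and sorting, 14 were higher in urothelium and 0 in muscle (median 4.39, the highest of the lists used). They included the splicing regulators Esrp1 (4.63 ± 0.43) and Esrp2 (4.59 ± 0.50), the matriptase gene St14 (4.59 ± 0.60), its inhibitor Spint2 (4.72 ± 0.48) and prostasin, Prss8 (4.39 ± 0.52), with limma adjusted p from 5e-05 to 0.000408. Among the genes called in these lists, Tjp3, Patj, Pkp3, Itga6 and Cd24a lost the call when some single array was left out.

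**Figure D2:**
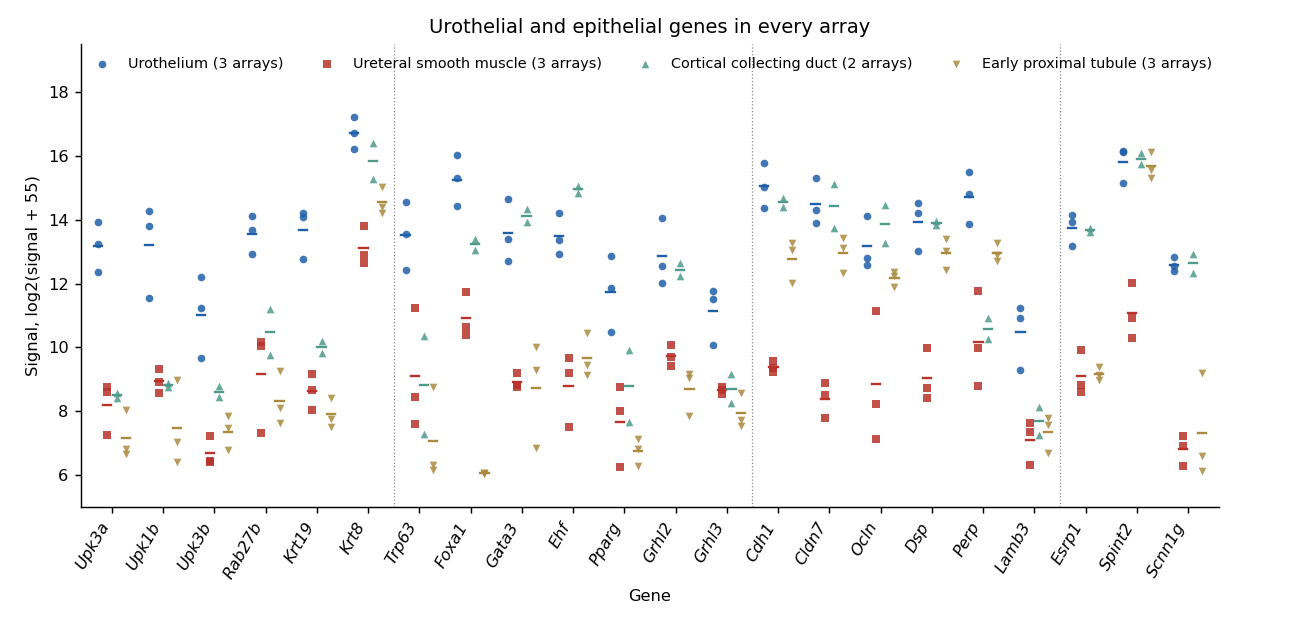
Levels of 22 epithelial genes in log2(signal + 55) (y axis) in every array; circles are the 3 urothelium arrays, squares the 3 muscle arrays, upright triangles the 2 collecting duct arrays and inverted triangles the 3 proximal tubule arrays, with a bar at each mean. The blue and red points do not overlap for any gene shown, and for Cdh1, Ehf, Esrp1 and Scnn1g the collecting duct lies near or above urothelium.

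Several of these genes were also set against the cortical collecting duct, a kidney epithelium. In that comparison limma called 35 genes, 0.257% of those tested. It uses the same 3 urothelium arrays, so its values are given side by side with those above and not as independent evidence. Upk3a was higher in urothelium than in collecting duct by 4.67 ± 0.60 (limma adjusted p = 0.0068), Upk1b by 4.38 ± 0.80, Krt19 by 3.69 ± 0.53 and Perp by 4.14 ± 0.71. For Cdh1 the same difference was 0.51 ± 0.50, for Cldn7 0.07 and for Esrp1 0.07, none of them called. Aldh1a3, which makes retinoic acid, went the other way, 4.33 lower in urothelium than in collecting duct (-4.33 ± 0.67) and 2.61 higher than in muscle.

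Of 35 measured members of the contractile apparatus, 0 were higher in urothelium, 22 were higher in muscle and 13 were not called, and all 35 differences were negative (median -2.14). For 32 of them the muscle arrays lay wholly above the urothelium arrays, where 10.4% of all genes did. Acta2, smooth muscle alpha-actin, was at 17.63, 17.07 and 16.94 in muscle and at 15.56, 14.82 and 13.09 in urothelium (-2.73 ± 0.56, 6.62-fold, limma adjusted p = 0.00783). Actg2 was at 14.43, 14.62 and 14.61 against 11.29, 10.78 and 8.35 (-4.41 ± 0.63). Cnn1, calponin, was at 10.79, 10.79 and 11.41 against 7.63, 7.09 and 6.49 (-3.93 ± 0.39). Urothelium replicate 1 was the highest and replicate 3 the lowest urothelium array for all 3 genes, the order of the summed smooth muscle markers given above. Leaving out single arrays moved Acta2 between -2.03 and -3.26. Tagln (-3.68), the actin-binding Nexn (-3.14), the light chain Myl9 (-3.14), the laminin and collagen receptor Itga1 (-3.09), the tropomyosins Tpm2 (-2.84) and Tpm1 (-1.62), the kinase Mylk (-2.67), Cnn2 (-2.50), filamin Flna (-2.18) and vinculin Vcl (-1.72) were higher in muscle.

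Some proteins of mature muscle did not pass the test. Desmin, Des, was at 9.28, 8.25 and 8.45 in muscle and 6.85, 6.63 and 6.87 in urothelium (-1.88 ± 0.56, limma adjusted p = 0.0599). Caldesmon, Cald1, differed by -1.81 ± 0.55 (adjusted p = 0.0633), leiomodin, Lmod1, by -2.10 ± 0.62 (0.0547) and the integrin Itga8 by -2.43 ± 0.84 (0.107). Des and Lmod1 did not overlap between layers. Vcl, Mylk, Tpm1 and Tpm2 lost the call under some alternatives (highest adjusted p 0.146, 0.0628, 0.0658 and 0.756). Of the 22 called genes, 14 kept the call whichever single ureter array was left out and 16 with label batch as a block.

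SRF, the serum response factor, binds a short motif called the CArG box in the promoters of many contractile genes. The 300-base RefSeq promoter windows (GRCm38.p6, 250 bases before to 50 after the start) were searched on either strand by a script. A CArG box was found for 23 of the 284 genes called higher in muscle that have a window (8.1%), for 11 of 504 called higher in urothelium (2.18%) and for 172 of 10949 tested (1.57%). In the contractile list it was found for Actc1, Cnn2, Myl9 and Vcl among 18 called genes with a window. The grainyhead-like motif AACCNGTT was found in 4.37% of urothelial, 2.11% of muscle and 2.29% of all windows, and the TEAD motif GGAATG in 19.6%, 16.5% and 14.7%. The forkhead motif TGTTTAC gave 4.17%, 2.82% and 3.2%, and the GLI motif ACCACCC 7.54%, 5.28% and 5.73%. In the called contractile genes the TEAD motif was found in 7 of 18 windows (38.9%). None of these patterns contains another, though neighbouring matches can share bases, and a match describes the letters and shows no binding. The 250 bases before the start are shown for 3 contractile genes and for Srf itself, since they hold the motif that sets the muscle windows apart in this count; capitals mark the CArG box. Actc1 lies at chr2:114052876-114053125 on the minus strand, Myl9 at chr2:156775214-156775463 and Cnn2 at chr10:79988350-79988599 on the plus strand, and Srf at chr17:46556163-46556412 on the minus strand.
Actc1: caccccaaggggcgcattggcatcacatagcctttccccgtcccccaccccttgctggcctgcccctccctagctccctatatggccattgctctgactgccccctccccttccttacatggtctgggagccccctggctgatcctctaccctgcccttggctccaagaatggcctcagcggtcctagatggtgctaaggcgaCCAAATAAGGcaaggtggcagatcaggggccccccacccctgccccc
Myl9: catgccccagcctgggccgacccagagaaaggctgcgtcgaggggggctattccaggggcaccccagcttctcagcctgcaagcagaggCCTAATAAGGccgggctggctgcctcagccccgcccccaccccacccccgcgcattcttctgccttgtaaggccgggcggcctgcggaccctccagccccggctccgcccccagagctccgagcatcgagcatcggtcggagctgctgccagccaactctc
Cnn2: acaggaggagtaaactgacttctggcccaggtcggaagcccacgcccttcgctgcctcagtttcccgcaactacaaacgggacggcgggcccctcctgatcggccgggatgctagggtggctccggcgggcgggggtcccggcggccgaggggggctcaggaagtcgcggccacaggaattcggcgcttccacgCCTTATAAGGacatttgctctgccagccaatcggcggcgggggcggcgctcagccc
Srf: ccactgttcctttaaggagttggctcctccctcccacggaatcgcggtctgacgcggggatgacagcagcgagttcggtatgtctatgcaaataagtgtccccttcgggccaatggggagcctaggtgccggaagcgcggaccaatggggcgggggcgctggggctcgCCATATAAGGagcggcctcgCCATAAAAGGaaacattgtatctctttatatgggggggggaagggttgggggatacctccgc

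The box ends 38 bases before the start in Actc1, 152 in Myl9 and 47 in Cnn2, and Srf holds 2, ending 73 and 53 bases before it. Srf was itself at 12.99, 13.21 and 12.98 in muscle and 11.52, 10.52 and 11.59 in urothelium (-1.85 ± 0.39, limma adjusted p = 0.0095). Myocd, the muscle cofactor of SRF, was at 13.81, 15.38 and 14.70 against 12.58, 12.40 and 8.92 (-3.33 ± 0.89, adjusted p = 0.0339). Urothelium replicate 3 stood well below the other two for Myocd, and without it the difference was -2.14 and not called (adjusted p = 0.0871). Its call was also lost without muscle replicates 2 (0.119) and 3 (0.0902), with pseudocount 12 (0.0945), with the 6 ureter arrays alone (0.0752) and with label batch as a block (0.136). The call of Srf was lost with label batch as a block (0.0691) and when cross-matching probe sets were left out, since its brightest probe set is of that kind and the other differed by -1.41.

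Of 28 measured transcription factors of mesenchyme and smooth muscle, 11 were higher in muscle, 1 in urothelium and 16 were not called (median -1.68). Tbx18, the T-box factor of ureteric mesenchyme, was at 15.52, 16.04 and 15.80 in muscle and at 12.46, 12.35 and 11.49 in urothelium (-3.69 ± 0.59, 12.9-fold, limma adjusted p = 0.0017). Foxf1, a forkhead factor of mesenchyme that answers hedgehog, was at 14.59, 13.38 and 13.90 against 11.25, 10.32 and 8.59 (-3.90 ± 0.70). Tshz3, needed for ureteral muscle, was at 13.97, 13.85 and 13.06 against 11.70, 10.46 and 11.39 (-2.45 ± 0.43). The layers were apart by more than 1 unit for each of these genes. Meis1 (-2.99), Gata6 (-2.25), Tcf21 (-2.25), Twist2 (-2.14) and Twist1 (-1.93) were also higher in muscle. Tbx2 was the list's exception, at 12.84, 12.01 and 12.07 in urothelium and 11.25, 9.96 and 9.70 in muscle (2.00 ± 0.46). Gata6, Tcf21, Twist1 and Tbx2 lost the call without some single arrays and under other alternatives (highest adjusted p 0.0668, 0.134, 0.108 and 0.0724). Of the 12 called genes 6 kept it whichever ureter array was left out.

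**Figure D3:**
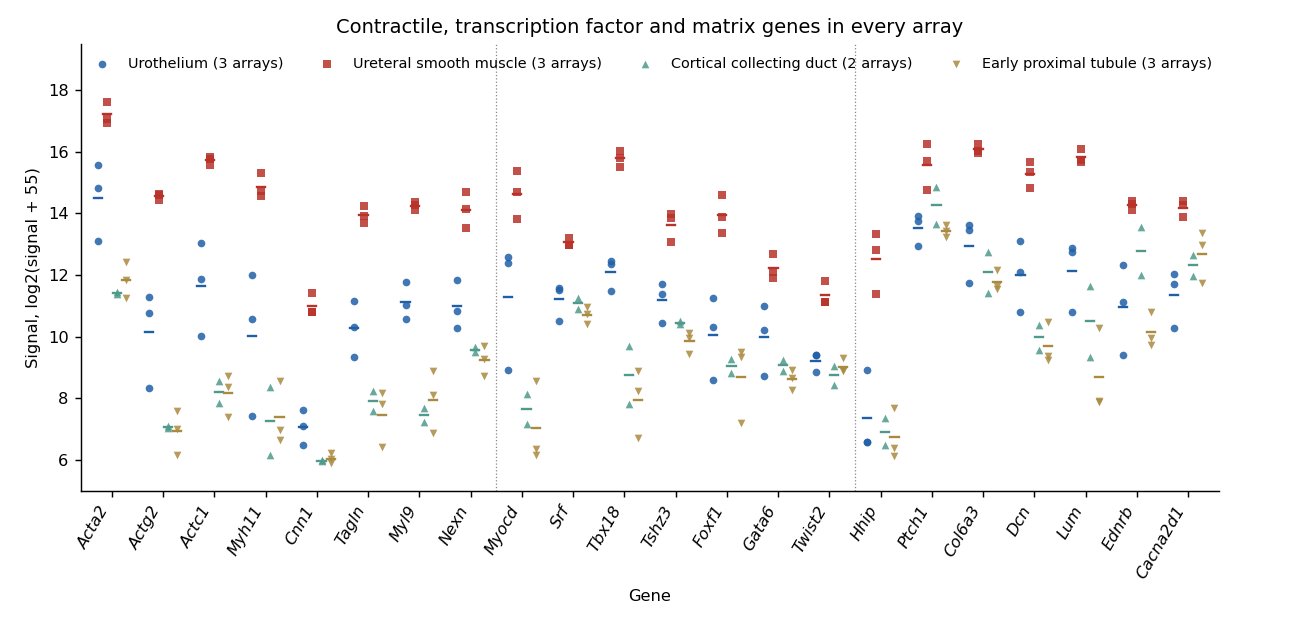
Levels of 22 contractile, transcription factor, hedgehog, matrix and channel genes in log2(signal + 55) (y axis) in every array, with the symbols of the epithelial plot and a bar at each mean. The squares of the 3 muscle arrays lie above the circles of the 3 urothelium arrays for every gene shown, and for Acta2, Actc1, Tagln and Tbx18 the urothelium arrays lie above the kidney compartments.

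The hedgehog ligand gene Shh was called in urothelium and the pathway targets Ptch1 and Hhip in muscle. Shh was at 13.39, 14.29 and 12.56 in urothelium and at 6.05, 9.14 and 7.71 in muscle (5.78 ± 0.83, 54.8-fold, limma adjusted p = 0.000826). Ptch1, the receptor and a transcriptional target of the pathway, was at 14.76, 16.27 and 15.69 in muscle and at 13.74, 12.93 and 13.91 in urothelium (-2.05 ± 0.48, adjusted p = 0.0172). Hhip, another target, was described above. The ligand was higher in the layer where Ptch1 and Hhip were lower, and the layers of these 3 genes did not overlap in any array. A dimmer probe set of Ptch1 differed by only -0.44. Of the effectors, Gli2 was at 12.59, 13.23 and 13.30 in muscle and 10.92, 10.22 and 11.93 in urothelium (-2.02 ± 0.47). Gli1 was at 9.45, 9.72 and 10.64 against 8.98, 6.49 and 8.48 (-1.95 ± 0.58, adjusted p = 0.0554) and Gli3 differed by -1.79 ± 0.66 (0.133), neither called. The co-receptor Cdon was higher in urothelium, at 11.94, 11.18 and 12.27 against 10.20, 10.04 and 9.20 (1.99 ± 0.42). Of 15 measured members 2 were higher in urothelium and 3 in muscle (33.3% called, against 7.96% over all genes). The 10 not called included the transducer Smo and the ligand Ihh, while Dhh did not pass the filter. Ptch1, Gli2 and Cdon lost the call under some alternatives (highest adjusted p 0.181, 0.0734 and 0.071), whereas Shh kept it under every alternative run. Hhip kept it in all but the 6 ureter arrays alone with label batch as a block (0.0744).

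WNT genes were called on either side: the ligands Wnt4 and Wnt7b in urothelium, the feedback inhibitors Nkd1 and Nkd2 in muscle, and receptors and antagonists in both. Of 52 measured members 6 were higher in urothelium, 7 in muscle and 39 were not called (median -0.04). The share called was 25%, against 7.96% over all genes. Wnt4 was at 12.56, 12.74 and 12.64 in urothelium and at 8.77, 8.16 and 6.29 in muscle (4.91 ± 0.62, 30-fold, limma adjusted p = 0.000319). Wnt7b was at 11.26, 11.69 and 11.08 against 9.49, 9.75 and 9.78 (1.67 ± 0.37), and Wls, which carries WNT proteins to the surface, was higher by 1.5 ± 0.39. Wnt4 varied by under 1 unit among the urothelium arrays and by more among those of muscle. Wnt9b, the collecting duct ligand, was at 9.95, 7.73 and 10.33 in urothelium and 8.03, 8.04 and 7.11 in muscle and was not called (1.61 ± 0.62). Receptors went in either direction. Fzd6 was higher in urothelium by 3.94 ± 0.56 and Fzd5 by 2.56 ± 0.52, while Fzd1 (-1.98 ± 0.38), Fzd7 (-2.18 ± 0.41) and the WNT5A receptor Ror1 (-3.32 ± 0.51) were higher in muscle. The antagonist Dkk1 was higher in urothelium, at 9.77, 10.22 and 11.83 against 6.38, 8.07 and 7.67 (3.24 ± 0.56). Sfrp2, a secreted WNT-binding protein, was at 17.96, 16.97 and 16.87 in muscle and 15.75, 15.11 and 15.17 in urothelium (-1.93 ± 0.43), and Dkk3 differed by -2.18 ± 0.53. The feedback inhibitors Nkd1 (-1.65) and Nkd2 (-2.25) were higher in muscle, and the target Axin2 was between 11.49 and 11.59 in the muscle arrays against 10.46, 9.90 and 10.87 without a call (-1.12 ± 0.40, adjusted p = 0.119). Wnt7b, Wls, Sfrp2, Dkk3 and Nkd1 lost the call without some single arrays or under other alternatives (highest adjusted p 0.0549 to 0.137).

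BMP and TGF-beta ligands were shared out between the layers. Of 13 measured ligands 2 were higher in urothelium, 4 in muscle and 7 were not called. Bmp7 was at 10.64, 10.36 and 12.19 in urothelium and 7.67, 9.08 and 8.16 in muscle (2.76 ± 0.51, limma adjusted p = 0.00417), and Bmp2 at 9.89, 11.34 and 12.37 against 7.66, 8.07 and 8.95 (2.98 ± 0.80, 0.0345). Bmp4 ran the other way, at 12.60, 12.27 and 11.60 in muscle and 11.13, 9.71 and 10.41 in urothelium (-1.74 ± 0.43, 0.024). Bmp5 was at 15.37, 15.43 and 14.67 against 13.68, 11.55 and 10.38 (-3.28 ± 0.72). Each of these 4 ligands was separated between the layers in every array. Gdf10 (-2.99 ± 0.64) and Tgfb3 (-3.26 ± 0.65) were higher in muscle as well, whereas Tgfb2 was not called (-2.00 ± 0.68, 0.0978). Of 10 receptors Acvr1b alone was called (10%, against 7.96% over all genes). It was at 11.51, 12.56 and 11.87 in urothelium against 9.87, 10.47 and 10.50 (1.70 ± 0.42). Among 11 antagonists and latent binding proteins 0 were higher in urothelium and 2 in muscle, the activin antagonist Fst (-2.97 ± 0.75) and the pseudoreceptor Bambi (-2.46 ± 0.39), while Nog and Chrdl1 did not pass the filter. Targets also split: Msx2 was at 10.42, 11.96 and 9.92 in urothelium and 6.89, 7.0 and 7.45 in muscle (3.65 ± 0.54), Id4 was higher in muscle (-1.80 ± 0.40), and Id1 differed by 1.31 ± 0.39 without a call (0.0576). Over all 47 measured members 4 were higher in urothelium, 7 in muscle and 36 were not called (median -0.61). The share called was 23.4%, against 7.96% over all genes. Bmp2, Bmp4, Gdf10, Fst, Id4 and Acvr1b lost the call under some alternatives (highest adjusted p 0.0564 to 0.117), and Bmp7, Bmp5, Tgfb3, Bambi and Msx2 kept it under every alternative but the one added after seeing the data.

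Among the other growth factors 2 FGF ligands stood on opposite sides. Fgf7, which signals to epithelium, was at 11.54, 12.60 and 11.85 in muscle and at 7.48, 8.26 and 8.48 in urothelium (-3.92 ± 0.52, 15.2-fold, limma adjusted p = 0.000449). Fgf9 was at 9.27, 10.22 and 9.17 in urothelium and at 7.58, 7.46 and 6.07 in muscle (2.52 ± 0.48, 0.00507). The layers did not overlap for either ligand, and none of the 5 FGF receptors was called. Of 18 measured FGF genes the feedback inhibitor Spred2 (1.66 ± 0.44) was the remaining call (16.7% called, against 7.96% over all genes). The ETS factor Etv5 was at 11.67, 10.31 and 11.39 against 9.67, 9.50 and 9.27 (1.64 ± 0.50, 0.0633). Spred2 lost its call under several alternatives (highest adjusted p 0.58). Erbb3, a receptor of neuregulins, was at 13.88, 13.65 and 12.82 in urothelium and 9.82, 9.07 and 7.30 in muscle (4.72 ± 0.60) and was the only call among 11 genes of the EGF family (9.09% called, against 7.96% over all genes). Its ligand Nrg1 was at 8.13, 9.02 and 8.31 in muscle and 6.28, 6.43 and 7.97 in urothelium (-1.59 ± 0.52, 0.0849).

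Retinoic acid genes had 4 of 16 measured members higher in urothelium (25%, against 5.03% over all genes) and 0 in muscle. Aldh1a3 was at 9.57, 8.24 and 10.45 against 7.66, 6.79 and 6.0 (2.61 ± 0.60), the retinaldehyde reductase Dhrs3 at 11.98, 11.94 and 11.77 against 9.50, 9.12 and 9.63 (2.48 ± 0.40), and the retinoic acid hydroxylase Cyp26b1 at 9.02, 9.31 and 10.34 against 7.18, 7.28 and 7.48 (2.24 ± 0.42). Another synthesis enzyme, Aldh1a2, differed by 0.11 ± 0.55 and was not called. The receptor Rxra (1.32 ± 0.38, limma adjusted p = 0.0497) was the fourth and, with Aldh1a3, lost its call under some alternatives (highest adjusted p 0.493 and 0.0823). Of 16 Notch genes the ligand Jag2 (1.85 ± 0.53) and the target Hes1 (2.37 ± 0.49) were higher in urothelium (12.5% called against 7.96% over all genes). With label batch as a block neither was called (adjusted p = 0.065 and 0.059), and Jag2 lost its call without 5 of the 6 ureter arrays in turn (up to 0.178). Of 39 axon guidance genes 6 were higher in urothelium and 3 in muscle (23.1% called, against 7.96% over all genes). The semaphorin receptor Plxnb1 was at 13.32, 12.76 and 12.39 in urothelium against 10.78, 9.94 and 8.54 (3.07 ± 0.59), the ligand Sema3d differed by 2.96 ± 0.65, the repellent Slit2 was at 15.53, 15.61 and 15.65 in muscle against 13.82, 12.35 and 14.49 (-2.05 ± 0.51), and the netrin receptor Unc5c differed by -2.27 ± 0.45. Sema3d and Slit2 lost the call without some single arrays and with label batch as a block (highest adjusted p 0.0578 and 0.108).

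**Figure D4:**
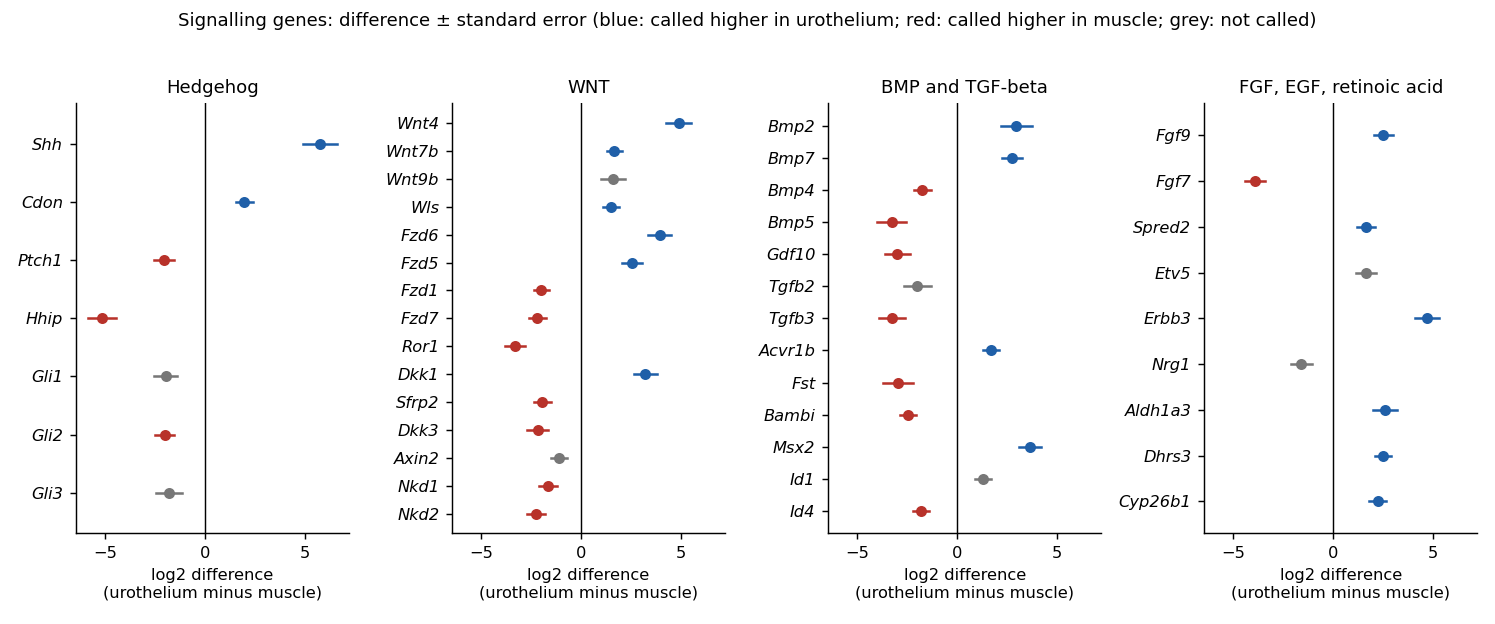
Difference between urothelium and ureteral smooth muscle (x axis, log2, urothelium minus muscle) for 44 signalling genes in 4 panels; points are the fitted difference, bars ± 1 standard error with 3 arrays in each layer, blue and red mark genes called higher in urothelium or in muscle and grey genes not called. Shh lies at 5.78 and Hhip at -5.16, and Fgf9 and Fgf7 lie on opposite sides of 0.

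Interstitial matrix genes had 0 of 37 measured members higher in urothelium, 17 higher in muscle and 20 not called (median -2.10). Col6a3, a chain of collagen VI, was at 16.24, 16.04 and 15.95 in muscle and at 13.61, 11.74 and 13.46 in urothelium (-3.14 ± 0.52, 8.82-fold, limma adjusted p = 0.00202). The small proteoglycans lumican, Lum, and decorin, Dcn, differed by -3.68 ± 0.75 and -3.27 ± 0.56, and the fibrillar collagen Col1a1 by -2.99 ± 0.48. Muscle arrays agreed within 1 unit for each of these, and urothelium replicate 2 was the lowest array throughout. Postn (-2.33), Fbn2 (-2.68) and Col3a1 (-1.5) were also higher in muscle, Fbn2 and Col3a1 losing the call without some single arrays (highest adjusted p 0.0756 and 0.122). Of the 17 called genes, 8 kept the call whichever ureter array was left out and 7 with label batch as a block.

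Basement membrane genes, which line the border of the layers, were called on either side. Of 22 measured members 5 were higher in urothelium, 2 in muscle and 15 were not called (median 0.09). The share called was 31.8%, against 7.96% over all genes. The Fraser complex genes Fras1 and Frem2, whose products anchor epithelium to mesenchyme, differed by 4.04 ± 0.79 and 2.76 ± 0.42. Frem2 was at 12.36, 11.68 and 10.98 in urothelium and at 8.99, 9.19 and 8.56 in muscle. The laminin chains went by layer: Lama1 (3.40 ± 0.76) and Lama5 (2.29 ± 0.43) were higher in urothelium, and Lama2, the chain of muscle basement membrane, was at 13, 13.73 and 13.90 in muscle against 11.87, 10.50 and 11.60 (-2.22 ± 0.52). Col18a1 was higher in urothelium (2.33 ± 0.43) and Col4a1 in muscle (-1.85 ± 0.47). Of 12 integrins 3 were higher in urothelium and 4 in muscle (58.3% called, against 7.96% over all genes). Among them were Itga3 (1.6 ± 0.42), Itga5 (-2.12 ± 0.33) and Itgb3 (-2.48 ± 0.56), while Itga1 was given above and the hemidesmosomal Itgb4 did not pass the filter. Lama1, Lama2, Col4a1, Itga3, Itga5 and Itgb3 lost the call under some alternatives (highest adjusted p by limma 0.0835 to 0.837), Itga3 and Itga5 when a gene's probe sets were averaged.

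Most channels of excitable muscle were not called at this stage, though their differences leaned to muscle. Of 25 measured calcium and pacemaker genes 0 were higher in urothelium, 4 in muscle (16%, against 2.93% over all genes) and 21 were not called. Differences were negative for 22 of the 25 (median -0.99). For 12 the muscle arrays lay wholly above the urothelium arrays, where 10.4% of all genes did. Cacna2d1, an accessory subunit of voltage-gated calcium channels, was at 14.27, 14.40 and 13.87 in muscle and 12.04, 10.27 and 11.71 in urothelium (-2.84 ± 0.53, limma adjusted p = 0.00467). Kcnma1, the large-conductance potassium channel, was at 11.56, 11.65 and 11.27 against 10.04, 9.15 and 8.12 (-2.39 ± 0.46), although another of its probe sets differed by 0.03. The L-type channel Cacna1c was at 9.66, 9.85 and 9.55 against 7.17, 9.66 and 7.56, and its layers overlapped (-1.56 ± 0.54, 0.104). The calcium release channel Ryr3 (-3.04) and the calcium pump Atp2b4 (-2.26) lost the call without some single arrays and with label batch as a block (highest adjusted p 0.116 and 0.172). Of 16 measured vasoactive genes 3 were higher in muscle (18.8%, against 2.93% over all genes). The endothelin receptor Ednrb was at 14.12, 14.39 and 14.32 against 11.14, 9.42 and 12.34 (-3.31 ± 0.64), and the cyclic GMP enzymes Prkg1, a kinase, and Pde5a, a phosphodiesterase, differed by -2.40 ± 0.46 and -2.44 ± 0.48. Pde5a missed the threshold with label batch as a block (0.0559), and the prostaglandin receptor Ptger4 was not called (-2.52 ± 0.75, 0.0557).

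Transport genes lay mainly on the epithelial side, with 7 of 23 measured members higher in urothelium, 2 in muscle and 14 not called. The share called was 39.1%, against 7.96% over all genes. Scnn1g, which encodes part of the sodium channel of tight epithelia, was at 12.56, 12.82 and 12.39 in urothelium and at 7.23, 6.28 and 6.92 in muscle (5.78 ± 0.64, limma adjusted p = 0.000122), and Scnn1b differed by 1.96 ± 0.40. Fxyd3, a regulator of the sodium pump, was at 12.49, 13.78 and 11.54 against 9.55, 8.65 and 6.29 (4.44 ± 0.77), and the pump subunit Atp1b1 differed by 2.07 ± 0.40. The glycerol and water channel Aqp3 was at 11.67, 11.94 and 10.77 against 8.41, 8.08 and 9.47 (2.81 ± 0.52). Aqp1 was higher in muscle, at 10.58, 10.96 and 10.89 against 9.95, 8.57 and 7.69 (-2.08 ± 0.59). The anion exchanger Slc26a4 was also called in muscle (-1.41 ± 0.40), and it, Aqp1 and Scnn1b lost the call under some alternatives (highest adjusted p 0.223, 0.159 and 0.059).

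Of 26 measured Hox genes, which pattern the body axis, 34.6% were called, against 7.96% over all genes. In all 8 were higher in urothelium, 1 in muscle and 17 were not called (median 0.65). The Hoxb cluster gave 5 of the 8, which were higher in urothelium: Hoxb5 was at 9.59, 11.27 and 10.50 against 6.32, 6.10 and 6.34 in muscle (4.2 ± 0.45, limma adjusted p = 0.000111), Hoxb3 differed by 3.23 ± 0.43, Hoxb4 by 3.17 ± 0.48, Hoxb6 by 2.44 ± 0.41 and Hoxb2 by 2.31 ± 0.42. Hoxd13, the most 5' gene of its cluster, was the muscle gene, at 10.63, 11.69 and 11.17 against 8.63, 9.83 and 8.01 (-2.34 ± 0.53), and Hoxd3 was higher in urothelium (2.92 ± 0.65). Hoxd3 lost the call without muscle replicate 3 (adjusted p = 0.0568) and Hoxd13 without some single arrays and with label batch as a block (highest adjusted p 0.0875), and the 5 Hoxb genes kept it under these alternatives.

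Few proliferation genes were called: of 31 measured cell cycle genes 2 were higher in urothelium, 1 in muscle and 28 were not called (median -0.15), a share of 9.68% called against 7.96% over all genes. The 3 were inhibitors of cyclin-dependent kinases. Cdkn2b was at 8.75, 9.94 and 9.56 in urothelium and 6.53, 6.99 and 7.18 in muscle (2.52 ± 0.55) and Cdkn1a differed by 1.5 ± 0.38, while Cdkn2c was at 12.55, 12.80 and 12.94 in muscle against 10.52, 11.64 and 10.55 (-1.86 ± 0.40). All 3 lost the call under some alternatives, single arrays left out among them (highest limma adjusted p 0.0501 to 0.107). Of 20 growth factor and imprinted genes of the IGF list 2 were called (10%, against 7.96% over all genes). The ligand Igf1 was at 15.48, 15.42 and 14.80 in muscle against 13.26, 9.92 and 12.50 (-3.34 ± 0.77). The binding protein Igfbp5 was at 16.00, 17.02 and 14.57 in urothelium against 12.96, 12.30 and 11.04 (3.77 ± 0.64). Of 17 immediate early and heat shock genes 2 were called (11.8%, against 7.96% over all genes). Fos was at 11.41, 12.64 and 9.80 in urothelium and 8.17, 6.70 and 7.47 in muscle (3.84 ± 0.64, adjusted p = 0.00216) and Hspb1 differed by 1.59 ± 0.44. Igf1 and Hspb1 lost the call without some single arrays (highest adjusted p 0.0544 and 0.148).

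**Figure D5:**
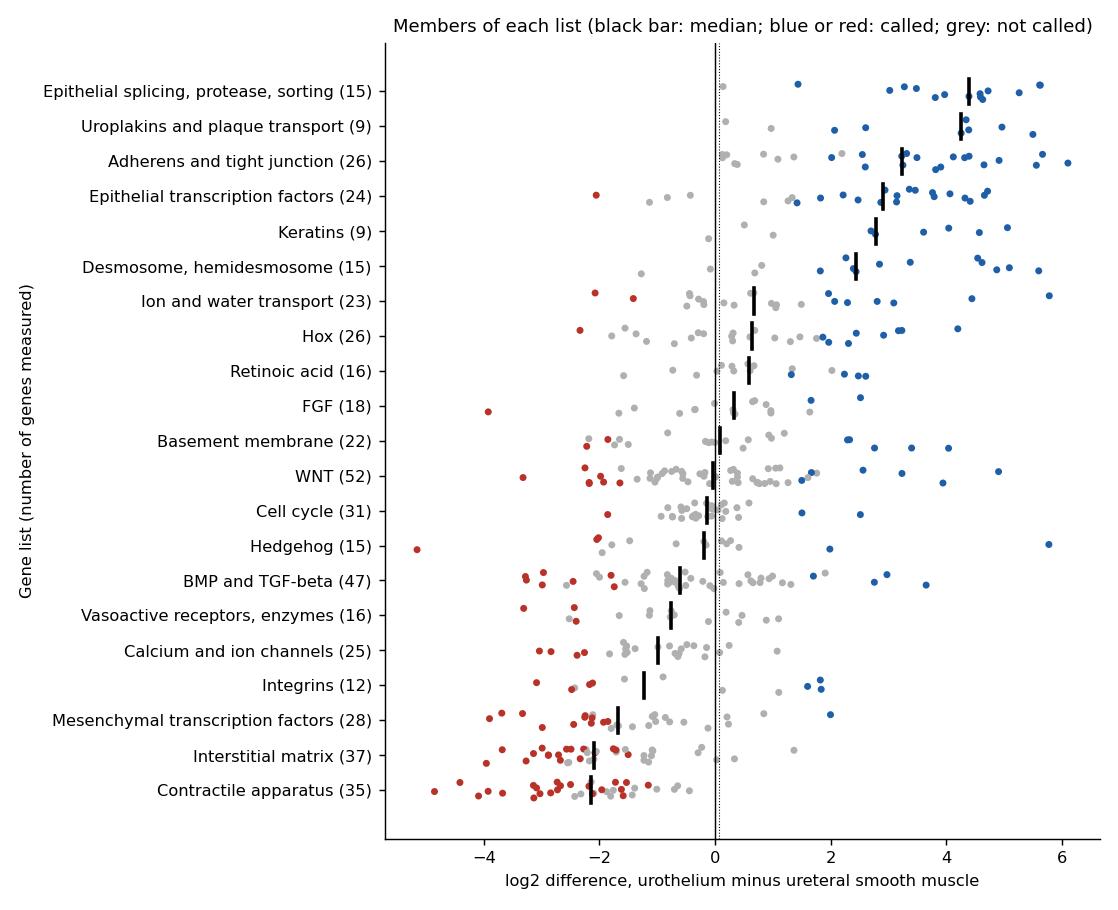
Difference between the layers (x axis, log2, urothelium minus muscle) for the measured members of 21 gene lists (y axis, number of genes in brackets); points are genes, blue and red those called in urothelium and in muscle, black bars the list medians and the dotted line the median of all genes, 0.06. The medians run from 4.39 for epithelial splicing, protease and sorting genes to -2.14 for the contractile apparatus, and WNT genes centre on -0.04.

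Markers of other cell types that the dissection could hold were read in the same way. None of 14 endothelial markers was called by limma (median -0.65), and their summed signal was 6210 to 17800 in urothelium and 12400 to 16000 in muscle. None of 7 leukocyte markers (sums of 2030 to 5410 and 2240 to 2830) and 4 erythroid markers (13700 to 21800 and 9100 to 14200) was called, though Cd68, Aif1 and all 3 C1q genes did not pass the filter. Fibroblast markers had 5 of 12 members higher in muscle, Lum, Dcn, Col3a1, Col14a1 and Tcf21, with sums of 380000 to 528000 in muscle and 75600 to 152000 in urothelium, and Pdgfra was not called (-2.30 ± 0.68, adjusted p = 0.0542). Lum, Dcn, Col3a1 and Col14a1 are also members of the interstitial matrix list, so these sums partly restate the matrix genes above. What fibroblasts add to the matrix differences was not tested. Of 8 pericyte markers, with sums of 16000 to 28500 in urothelium and 15200 to 27300 in muscle, 37.5% were called, against 7.96% over all genes. Cspg4 (-2.48 ± 0.70) and Mcam (-1.70 ± 0.45) were higher in muscle and Angpt1 (1.67 ± 0.47) in urothelium. None of the 3 kept the call whichever array was left out, and without urothelium replicate 2 Cspg4 differed by -1.39 (adjusted p = 0.0765). Of 7 mesothelial markers, with sums of 11700 to 24900 in urothelium and 963 to 1490 in muscle, Msln (2.25 ± 0.55), Upk3b and Krt19 were higher in urothelium. Upk3b and Krt19 are also urothelial genes and enter these sums, which therefore cannot tell mesothelium from urothelium.

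Nephron markers had 2 of 14 members higher in urothelium (14.3%, against 5.03% over all genes) and 0 in muscle. The POU factor Pou3f3 was at 14.06, 13.54 and 14 in urothelium and 9.14, 8.98 and 7.78 in muscle (5.23 ± 0.45, limma adjusted p = 2.99e-05), and 14.44 and 15.41 in collecting duct. The endocytic receptor Cubn differed by 2.51 ± 0.48, and its partner Lrp2 was at 12.29, 7.93 and 9.64 against 8.12, 6.31 and 6.05 without a call (3.13 ± 0.92, 0.0537). Summed nephron signal, which includes Pou3f3, was 16900 to 47200 in urothelium and 5440 to 8780 in muscle. It was 35900 to 76500 in collecting duct and 125000 to 171000 in proximal tubule. Its part in these differences was not tested. Cubn lost its call when cross-matching probe sets were left out (0.0815). Of 12 neural and neural crest markers 8 had negative differences and 4 positive (median -0.6). Their sums, which bright genes dominate, were 15300 to 18000 in urothelium and 4540 to 5060 in muscle. Among these markers Erbb3 and the GDNF receptor Ret (3.58 ± 0.92) were higher in urothelium and Fabp7 (-1.99 ± 0.56) in muscle. The share called was 25%, against 7.96% over all genes. Ret was at 8.58, 10.56 and 12.28 in urothelium against 7.41, 7.19 and 6.07, its other probe set differed by -0.45, and Ret and Fabp7 lost the call without some single arrays and under other alternatives (highest adjusted p 0.172 and 0.164). Skeletal muscle markers had 1 of 9 members called (11.1%, against 7.96% over all genes), with 4 differences positive and 5 negative (median -0.15). The called gene was the troponin Tnnt1, at 11.64, 11.33 and 11.62 in muscle against 9.42, 8.06 and 9.24 (-2.62 ± 0.46). The sums were 2140 to 13800 in urothelium and 4600 to 5360 in muscle, while Myod1, Myog, Myf5 and Pax7 did not pass the filter.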

How the data were processed

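Per the labels, the RNA went through 2 amplification rounds before biotin labelling. The deposited file gives a linear intensity for each of 45101 Affymetrix probe sets; the submitters' processing notes name GCOS, with no version; the authors' scaling to a 2% trimmed mean of 1500 was kept. The intensity was taken to log2(signal + 55), 55 being the 20th percentile of the deposited table. Probe sets with 1 gene symbol (34945; 932 had several, 9160 none here, 64 were controls) were kept if above the array median in at least 2 arrays (24427), and a gene was read from its brightest one. Symbols came from GEO's platform annotation and, for 34741 probe sets, were compared with a RefSeq table through their Entrez identifiers, which changed 0. The sources used here give neither the stain nor the landmarks followed in dissection.

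limma 3.58.1 (R 4.3.3) fitted a mean per compartment over all 11 arrays (7 residual and 6.38 prior degrees of freedom), which assumes a common spread. The procedure was tested on simulated data. The members and lists were chosen with earlier results of these data known, and the lists carry no test. Named genes were the 15 leading genes each way that did not overlap and kept their sign within label batches, the 6 members per list that ranked highest by size of moderated t, all uroplakin, hedgehog and BMP members, a set of anchors, the most different member of each cell-type list, and list members chosen after their values were seen. Alternatives were quantile normalization, pseudocounts of 12 and 190, no filter or one at the 75th percentile, and the mean of probe sets. Others left out x, s and a probe sets, of which the x and s kinds are possible cross-matches, or used the 6 ureter arrays alone. The rest were eBayes with a trend and robust priors, a fixed or random block for label batch (correlation 0.027), and each of the 6 ureter arrays left out in turn. No kidney array was left out. Added after seeing the data was the fit of the 6 arrays with label batch as a block. The number of arrays limits the precision. Plots used Python 3.11.15, pandas 2.3.3 and matplotlib 3.10.9.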

Additional observations from a re-analysis of the deposited data

How the results depend on the processing

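Of the 193 called genes named in the text, 131 kept the call whichever single ureter array was left out. Under each alternative other than the one added after seeing the data, 116 kept it, and no called difference changed sign under any alternative run. Leaving out single ureter arrays gave 740 to 1069 called genes in place of 1084, with 503 to 627 in place of 685 higher in urothelium and 219 to 442 in place of 399 higher in muscle. With label batch as a fixed block 719 genes were called and 207 were higher in muscle, 663 of the 719 being shared with the 1084; the median standard error went from 0.468 to 0.503. The fit of the 6 ureter arrays with label batch as a block, chosen after seeing the data, called 217 genes, 176 higher in urothelium and 41 in muscle, of which 214 were shared, and 134 of the 193 named genes lost the call there; the cause was not tested. Quantile normalization, the pseudocounts, the filters, the choice of probe sets, the trend and robust priors, the random block and the 6 arrays alone gave 799 to 1250 called genes, and none moved the median of all genes by over 0.1. No paired analysis was possible because, apart from the date-like part, no number in a urothelium title recurs in a muscle title. The date-like part that some titles share was fitted as the label batch block above. Dim genes near the offset have differences that the pseudocount shrinks, and 4579 symbols of the array did not pass the filter and say nothing here.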
